A study of Mus musculus with 3 samples.

Results

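The HoxA cluster is a tight array of homeobox genes on mouse chromosome 6, and GLI3 binding was examined there and in the sequence around it. All listed GLI3 peaks on chromosome 6 with a summit within 300 kb of an annotated transcription start site (TSS) of Hoxa13, Hoxa11, Hoxa10, Hoxa9, Hoxa7, Hoxa6, Hoxa5, Hoxa4, Hoxa3 or Hoxa2 were taken, which gave 67 of the 17149 peaks in the list. Of these, 52 had a summit inside the cluster, a span of 105 kb on mm10 that ends at the 5′ end of Hoxa13, and 15 lay outside it. The choice used position and not enrichment.

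The peaks came from chromatin immunoprecipitation and sequencing (ChIP-seq) of E10.5 mouse forelimb buds, taken from embryos with 32 to 35 somites. The 3 libraries were 2 GLI3 ChIP replicates and 1 input library, and the labels give 2 litters of limb buds for each ChIP reaction. All carried a mixed strain background and received no treatment named in the labels. The study's methods describe an endogenous Gli3 allele with an amino-terminal FLAG tag, recovered with an antibody to FLAG, while the genotype label reads wild type. The whole limb bud was pooled, so a site bound weakly in many cells and a site bound strongly in few cells cannot be told apart. No expression was measured, so the labelled tissue could not be checked against its markers. A single list covers the ChIP replicates and holds no value per replicate and no read count. No value below therefore has a replicate error, the exact depth of each library is not known because the methods give only a lower bound, and all comparisons are descriptions of this list with no test.

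GLI3 is a zinc finger transcription factor of the Hedgehog pathway, and without Hedgehog signal it is processed to a shorter repressor. In the limb bud it counteracts Sonic hedgehog, which is made at the posterior margin. HoxA genes encode transcription factors that are turned on in the order of their position, and those at the 5′ end act latest and most distally in the limb. Hoxa13 patterns the digits, Hoxa11 the forearm and Hoxa10 the upper arm, whereas genes towards the 3′ end pattern the trunk, the pharyngeal arches and the hindbrain. All HoxA genes are transcribed from the minus strand, so moving from Hoxa13 to Hoxa2 lowers the chromosome coordinate.

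The peaks of highest enrichment lay in the middle of the cluster, at Hoxa7 and Hoxa9 and between them. Sequences of the locus that match the word bound by GLI proteins are shown first. Of the peaks of highest enrichment, only that at Hoxa7 has such a match. Sequences were read from GRCm38.p6, the assembly that mm10 represents, and are printed from 5′ to 3′. The word GACCACCCA, the consensus bound by GLI zinc fingers, was searched on both strands with at most 1 mismatch in the 250 bp to either side of each summit. Of the 22 peaks with a false discovery rate (FDR) under 0.05, 5 had a match. The 6 windows below are shown because they hold the matches of these 5 peaks and the only exact match among all 67 peaks. Capitals mark the matched word, 10 bases of flank stand on either side, and substitutions are counted from 1 at the 5′ end of the consensus, with its base first.
Hoxa7 start site, chr6:52217530-52217558, plus strand, A5G: cgcggcacgtGACCGCCCAcatgaccgcc
upstream of Hoxa4, chr6:52192195-52192223, minus strand, A9G: accctcggagGACCACCCGaagcctggtt
3′ flank of the cluster, chr6:52116086-52116114, plus strand, A5T: aaacttaaaaGACCTCCCAgggagagtag
beyond Hoxa13, near side, chr6:52271195-52271223, plus strand, C3A: agtcggaggtGAACACCCAgggtgggcta
beyond Hoxa13, far side, chr6:52443625-52443653, plus strand, C4A: ctgttgttctGACAACCCAactctatgct
Hoxa10 intron, chr6:52239870-52239898, plus strand, no substitution: cacagacgctGACCACCCAttgtttccaa
The match at Hoxa7 lay 3 bp from the summit of the highest-ranked peak of the locus. The exact match lay in a peak with an FDR of 0.461 and a log2 fold enrichment of 1.99, among the lower values inside the cluster. A match is a description of the letters and not a measured binding site.

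The peak list extends to an FDR of 1, and peaks with an FDR under 0.05 are referred to as called. Around the HoxA genes 22 of 67 listed peaks (32.8%) were called, compared with 42.5% of all listed peaks. The share was alike inside the cluster, with 17 of 52 (32.7%), and outside, with 5 of 15 (33.3%). At an FDR under 0.01 there remained 12 peaks inside and 2 outside. The locus therefore held many peaks but no larger a share of called peaks than the list as a whole.

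Peaks were dense inside the cluster and sparse beyond it. Inside, there were 49.4 listed and 16.1 called peaks per 100 kb. On the 3′ side, past Hoxa2, which spans 291 kb of the window, there were 1.72 listed and 1.03 called peaks per 100 kb. On the side beyond Hoxa13 the values were 3.33 listed and 0.667 called per 100 kb over 300 kb. Over all assembled chromosomes they were 0.629 and 0.267 per 100 kb. Called peaks covered 9.31% of the bases inside the cluster.

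The genome was also divided into 27268 bins of 100 kb. The bin chr6:52200001-52300000, which holds Hoxa13 to Hoxa5 and the 5′ part of Hoxa3, had 35 listed peaks, and no other bin had as many. It had 11 called peaks, and 1 bin of the genome had more. The neighbouring bin chr6:52100001-52200000, with Hoxa4, Hoxa2 and the rest of Hoxa3, had 21 listed peaks, with 3 bins above it, and 8 called peaks, with 11 bins above it.

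**Figure D1:**
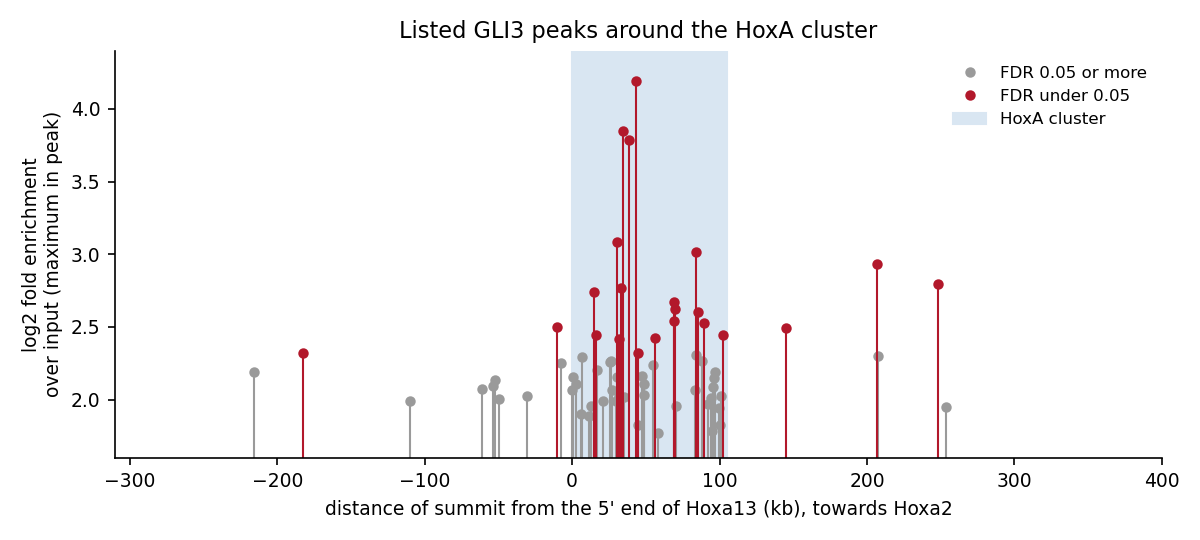
Log2 fold enrichment of ChIP over input (vertical axis) for each of the 67 listed peaks against the distance of its summit from the 5′ end of Hoxa13 in kb (horizontal axis, positive towards Hoxa2). Red points are called peaks, grey points are peaks with an FDR of 0.05 or more, and the shaded band is the cluster, which holds 52 of the peaks and every value above 3.

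Within the cluster, called peaks fell into groups separated by gaps. Counted in 10 kb bins from the 5′ end of Hoxa13, the called peaks numbered 0, 2, 0, 5, 2, 1, 3, 0, 3, 0 and 1, with the last bin running past the end of the cluster. The bin with 5 called peaks, 30 to 40 kb from the 5′ end of Hoxa13, holds the start sites of Hoxa9. The bins with the start sites of Hoxa13, Hoxa10 and Hoxa2 had 5, 5 and 7 listed peaks and no called peak. The gap from the called peak next to Hoxa11 to the 5′ end of Hoxa13 was 14863 bp long, and 7 listed peaks in it were not called. A gap of 13945 bp between called summits held the Hoxa10 start sites and 6 peaks that were not called. Around Hoxa2 the gap was 13075 bp, with 9 peaks that were not called. A gap of 13860 bp within the Hoxa3 transcript, between its 3′ part and Hoxa4, had 2 peaks that were not called. The longest stretch inside the cluster without any listed summit, 13130 bp, lay in it. That stretch holds the 5′ end of a RefSeq transcript of Hoxa3, at position 52180119. Between Hoxa4 and Hoxa5 a gap of 12345 bp had 1 peak that was not called, and a gap of 11770 bp with the start sites of Hoxa5, Hoxa6 and Hoxa3 had 4.

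**Figure D2:**
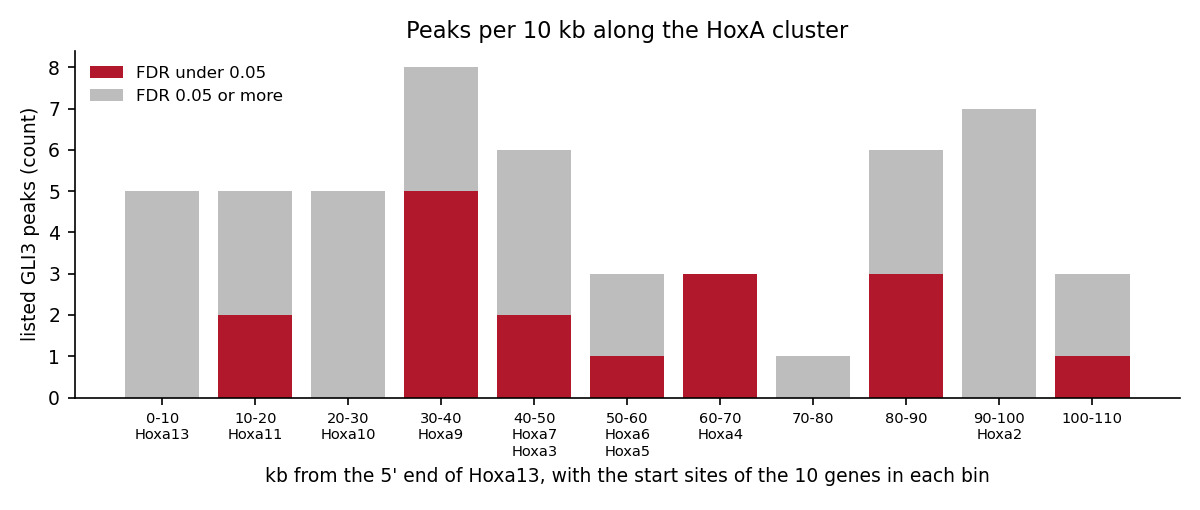
Number of listed GLI3 peaks (vertical axis) in each 10 kb bin from the 5′ end of Hoxa13 (horizontal axis, kb, with the start sites of the 10 genes in each bin), with called peaks in red and the others in grey. The bins of Hoxa13, Hoxa10 and Hoxa2 hold 5, 5 and 7 listed peaks, none of them called, and the bin of Hoxa9 holds 5 called of 8.

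A gene was counted as having a promoter peak when a called peak shared at least 1 bp with the interval from 2 kb before to 1 kb after a TSS of a protein-coding transcript. Hoxa11, Hoxa9, Hoxa7, Hoxa5 and Hoxa4, 5 of the 10 genes, met this, whereas Hoxa13, Hoxa10, Hoxa6, Hoxa3 and Hoxa2 did not. Over all 21864 protein-coding genes 17.2% had a called promoter peak. Counting any listed peak, 9 of the 10 genes had a promoter peak, against 30.9% of all protein-coding genes. Hoxa3 is counted here by its only start in the gene set used, not by the RefSeq 5′ end given above. Windows of neighbouring HoxA genes lie close together, so the genes are not independent counts.

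Among the genes that pattern the distal limb, Hoxa13 had 2 listed promoter peaks, with log2 fold enrichments of 2.07 and 2.16 and FDRs of 0.251 and 0.148. Its nearest called summit lay 10412 bp upstream of the TSS. Hoxa11 had 2 called promoter peaks. The first had its summit 207 bp upstream of the TSS (chr6:52245800-52246349) and a log2 fold enrichment of 2.74, and it overlapped exons of the antisense transcript Hoxa11os and of Gm28032. The second lay 1128 bp downstream in the Hoxa11 intron (chr6:52244600-52245249), with a value of 2.45. Hoxa10 had 3 listed promoter peaks at 1.99, 2.26 and 2.26, the lowest FDR being 0.0709. Of these 3 neighbouring genes, Hoxa11 alone carried called peaks at its promoter.

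Hoxa9 acts with its paralogs early in the forelimb, before Sonic hedgehog is expressed. It had 5 listed promoter peaks, of which 3 were called. The peak chr6:52225950-52227049, ranked 357 of the whole list, had a log2 fold enrichment of 3.85 and a −log10 Poisson p of 49.6. Its summit lay 73 bp upstream of the start of the shorter Hoxa9 transcript, within an untranslated region of the longer one. The second (chr6:52227600-52228249) had its summit 407 bp upstream of the longer transcript's start, with a value of 2.77. The other, ranked 5989, lay 2032 bp upstream at 2.42.

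Hoxa7, which patterns trunk vertebrae, had the highest-ranked peak of the locus. This peak, chr6:52216700-52218049, ranked 157 with a log2 fold enrichment of 4.19 and a −log10 Poisson p of 63.2, and at 1350 bp it was also the longest of the 67. Its summit lay 42 bp upstream of a Hoxa7 TSS of the gene set used here and 1026 bp from the 5′ end of the RefSeq transcript. A further called peak in the Hoxa7 intron (rank 7171, summit 1350 bp downstream of the nearest start) had a log2 fold enrichment of 2.32.

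The peak ranked 420 lay between Hoxa7 and Hoxa9 (chr6:52221700-52222699), with a log2 fold enrichment of 3.78 and a −log10 Poisson p of 41.0. It was intergenic in the gene set used, 3616 bp upstream of the nearest Hoxa7 TSS there, but 473 bp from the 5′ end of a longer Hoxa7 transcript in the comprehensive GENCODE set. A further peak lay upstream of Hoxa9, towards Hoxa10 (chr6:52230450-52230899), at 3.09, outside the transcripts of the gene set used but within the Hoxa9 gene record, which extends to position 52231089. Its −log10 Poisson p of 48.2 was high for its place, since it ranked 1698 by the T statistic and 510 by the Poisson p. Its summit was 205 bp from the 5′ end of a Hoxa9 transcript with a retained intron in the comprehensive GENCODE set, and 572 bp upstream of the hairpin of Mir196b, a microRNA gene of the cluster whose family is known to repress Hox transcripts. The transcript start nearest to the peak is that of this hairpin in the basic gene set used, though not in the comprehensive set. The mature sequence of its 5p arm from RefSeq (GRCm38.p6) is therefore shown, with the seed, bases 2 to 8, in capitals.
mmu-miR-196b-5p: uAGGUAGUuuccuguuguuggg
A separate listed peak over the hairpin itself had a log2 fold enrichment of 2.16 and an FDR of 0.148, and was not called. The 61 bases around the summits of the peaks at 3.78 and 3.09 are given next because neither window overlaps an untranslated region or a RefSeq exon. Neither holds the GLI word or the other words described further on, so there are no capitals in them, and the larger windows of these peaks held no GLI match.
between Hoxa7 and Hoxa9, chr6:52222297-52222357, plus strand: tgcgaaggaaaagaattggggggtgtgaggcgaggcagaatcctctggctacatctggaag
upstream of Hoxa9, chr6:52230707-52230767, plus strand: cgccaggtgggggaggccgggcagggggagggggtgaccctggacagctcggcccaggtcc

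The 4 highest-ranked summits of the locus lay within 13190 bp of each other. This stretch held 9 listed peaks, of which 6 were called and 1, at Hoxa7, had a GLI match. The 12 called peaks inside the cluster beyond the 5 highest had log2 fold enrichments from 2.32 to 2.77, and the 35 that were not called ranged from 1.77 to 2.31. Enrichment in the cluster was therefore concentrated in few peaks, with most values close to the lowest called value.

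**Figure D3:**
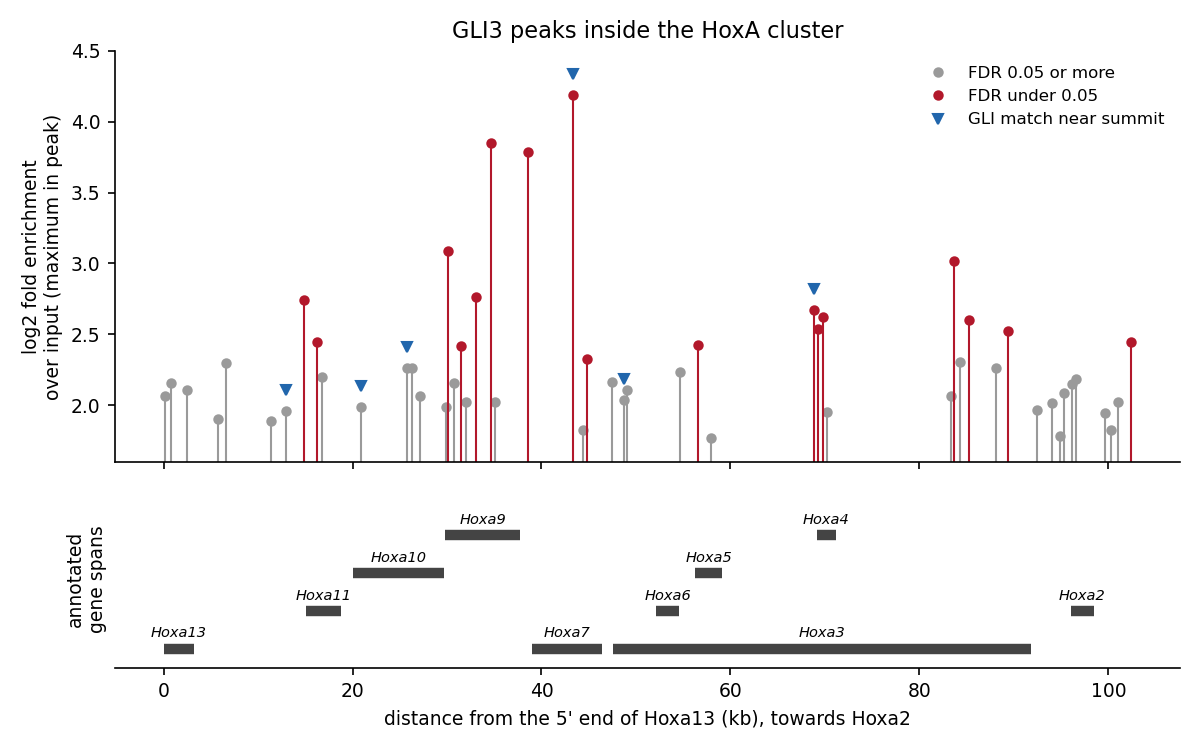
Log2 fold enrichment of the 52 listed peaks inside the cluster (vertical axis, upper panel) against distance from the 5′ end of Hoxa13 in kb (horizontal axis), above the annotated spans of the 10 genes. Called peaks are red, the others grey, and triangles mark the 6 peaks with a GLI match; the 4 highest values, 4.19, 3.85, 3.78 and 3.09, lie from Hoxa7 to the boundary of Hoxa9 and Hoxa10.

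Hoxa6, which patterns the trunk, had no listed peak in its promoter window, and its nearest called summit was 4390 bp away. Hoxa5, which acts in the lung and the neck and shoulder skeleton, had 1 called promoter peak in its coding sequence (rank 5959, summit 255 bp downstream of the TSS), with a log2 fold enrichment of 2.43. At Hoxa4, a gene of the neck vertebrae, all 3 promoter peaks were called. Their values were 2.67, 2.63 and 2.54, with summits 234 bp upstream, 721 bp downstream and 196 bp downstream of the TSS. The 3 summits were only 525 and 430 bp apart, so they may not be separate sites.

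Hoxa3, which is needed for the thymus and parathyroid, had 2 listed promoter peaks at 2.04 and 2.17, neither called. These lie at its only start in the gene set used. A RefSeq transcript of Hoxa3 has its 5′ end elsewhere, at position 52180119, 2947 bp from the summit ranked 1974. Its annotated transcript is long and overlaps other HoxA genes, and 15 listed summits lay within its span, with log2 fold enrichments from 1.77 to 3.02. The highest, ranked 1974 (chr6:52176900-52177349), lay in a Hoxa3 intron and in the antisense gene Hoxaas3, 326 bp from the start of 5730596B20Rik. Further called peaks near the 3′ end of this transcript had values of 2.60 (rank 4298, 342 bp from the start of Hoxaas3) and 2.53 (rank 4929, 1364 bp from that of Gm15050). Hoxa2, which sets the identity of the second pharyngeal arch, had 5 listed promoter peaks from 1.79 to 2.19, the lowest FDR being 0.133. Called promoter peaks of the 10 genes thus ran from Hoxa11 to Hoxa4, with the highest values at Hoxa7 and Hoxa9.

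By annotation, 10 of the 17 called peaks inside overlapped a promoter window of the 10 genes and 7 had the summit within 500 bp of a TSS of these. Summits lay upstream of the nearest of these TSSs in 11 of 17. In an intron of a HoxA gene there were 8 summits, in coding sequence 2, in an untranslated region 1 and outside every transcript of the gene set 4, and the other 2 lay only in noncoding genes. Annotated noncoding genes were overlapped by 9 of the 17, including Hoxaas3 by 6 and Hoxa11os by 2. Counting the promoters of all protein-coding genes, 13 of 17 called peaks inside (76.5%) were at a promoter, compared with 52.6% of all called peaks. Promoter windows cover more of a dense gene cluster than of the genome, and this was not adjusted for.

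Outside the cluster 5 peaks were called. On the 3′ side they were an intergenic peak (chr6:52053950-52054449), at a log2 fold enrichment of 2.93, a peak in coding sequence of Skap2, an adaptor of Src-family kinase signalling (chr6:52012050-52012549), at 2.79, and another intergenic peak (chr6:52115850-52116149), at 2.49. On the Hoxa13 side they were chr6:52270900-52271499, 10412 bp upstream of Hoxa13, at 2.50, and chr6:52443450-52443649, 182577 bp upstream, at 2.32. The peaks at 2.93 and 2.79 were listed with an FDR of 0. Their values were below those of the 5 highest-ranked peaks inside the cluster, which ranged from 3.02 to 4.19, and above those of the other 12 called peaks there, of which the highest was 2.77.

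Of the 10 listed peaks outside that were not called, the 3 with the highest rank had values of 2.30 (rank 7460, on the 3′ side), 2.25 (rank 8169, upstream of Hoxa13, with a GLI match) and 2.19 (rank 9125). Evx1, a homeobox gene beside Hoxa13, had 1 listed peak in its promoter window, at 2.14 with an FDR of 0.233. Its antisense gene Evx1os was overlapped by this peak and by neighbouring ones of no higher enrichment.

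The outermost peaks of the window lay in a Skap2 intron at position 52007032, 158 kb from the nearest of the 10 genes, and at position 52476992, 216 kb away. The first listed peaks beyond the window lay in untranslated regions of Skap2 (307 kb, log2 fold enrichment 2.24) and of Hibadh, an enzyme of valine breakdown (379 kb, 2.28), and neither was called. The called peak with the highest FDR was that at chr6:52443450-52443649 (FDR 0.0393, log2 fold enrichment 2.32), and the peak just past the threshold was chr6:52176050-52176599 in a Hoxa3 intron (FDR 0.0704, 2.31).

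Enrichment of called peaks at the locus was similar to that of the list. The median log2 fold enrichment was 2.61 for the 22 called peaks, 2.63 inside the cluster, 2.50 outside and 2.69 for all called peaks. Inside minus outside, the medians differed by 0.13 on the log2 scale. This difference turned to -0.11 at an FDR under 0.01 and to -0.028 over every listed peak, so no direction is drawn from it.

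Called peaks inside the cluster had a median GC content of 56.7% in the 250 bp to either side of the summit, against 49.5% outside and 58.7% for all called peaks. The ratio of observed to expected CpG was 0.732 inside, 0.280 outside and 0.624 over all called peaks. GC content was 50% or more in 15 of 17 called peaks inside.

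With the window and FDR used here, a GLI match was about as frequent in the called peaks of the locus as in all called peaks. Of the 22 called peaks 5 had a match (22.7%, 95% Wilson interval 10.1 to 43.4%), compared with 20.8% of all called peaks. Inside it was 2 of 17 (11.8%, 3.29 to 34.3%) and outside 3 of 5 (60.0%, 23.1 to 88.2%), intervals that cover counting error only and overlap. Among listed peaks 10 of 67 (14.9%) had a match, compared with 17.9% of all listed peaks with a position. At an FDR under 0.01 the share at the locus was 14.3% (2 of 14). Within 100 bp of the summit it was 9.09% of the called peaks (2 of 22). None of the 22 called peaks held the exact consensus (0%, 0 to 14.9%), which 2.84% of all called peaks did. Of the 5 inside peaks listed with an FDR of 0, only that at Hoxa7 held a match.

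Other words were searched in the same windows. The GC box GGGCGG, without mismatch, was in 10 of 17 called peaks inside (58.8%, 36.0 to 78.4%) and in 57.1% of all called peaks. The CTCF core AGGGGGCGC, with at most 1 mismatch, was in 7 of 17 (41.2%, 21.6 to 64.0%) against 31.8%. These words can overlap, and both are frequent in sequence rich in G and C. TTTATTG, a word bound by posterior HOX proteins, was in 0 of 22 called peaks (0 to 14.9%) against 6.56% of all called peaks. The share in the list lay within each interval. The intervals treat peaks as independent, though windows of some close summits overlap, and the differences were not tested.

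The other Hox clusters were counted by the same rule, with the summit inside the span of their own genes. Called peaks inside numbered 17 in HoxA, 14 in HoxB, 5 in HoxC and 19 in HoxD, or 16.1, 8.05, 4.32 and 19.6 per 100 kb. Listed peaks inside came to 49.4, 20.1, 23.3 and 39.2 per 100 kb in the same order, so HoxA had the highest density of listed peaks and HoxD that of called peaks. The highest-ranked peaks inside had ranks of 157, 82, 252 and 119. Called peaks inside with a GLI match were 2, 0, 0 and 3. These are counts in 1 list, and the differences between clusters were not tested.

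**Figure D4:**
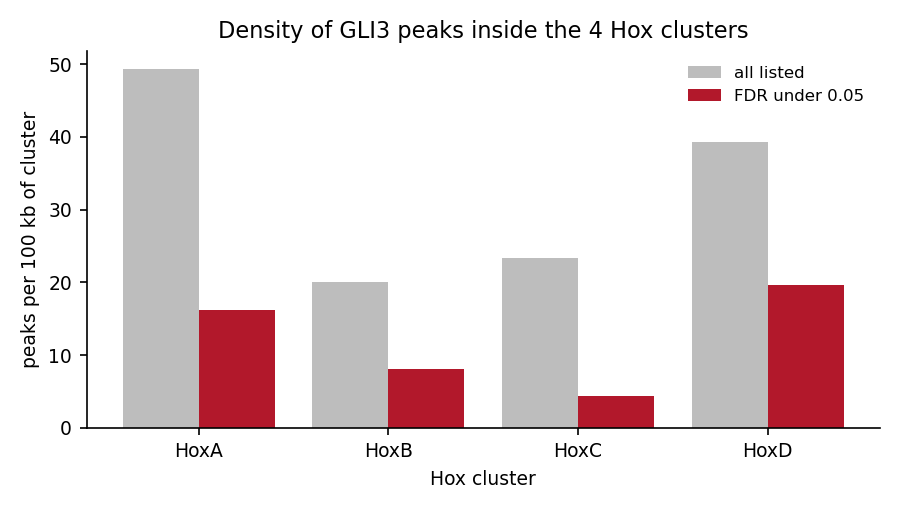
Listed peaks (grey) and called peaks (red) per 100 kb inside each of the 4 Hox clusters (vertical axis, peaks per 100 kb; horizontal axis, cluster). HoxA has the most listed peaks, 49.4 per 100 kb, and HoxD the most called peaks, 19.6 per 100 kb.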

How the data were processed

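GLI3 ChIP-seq peaks were taken from a single deposited list, attached to ChIP replicate 1. The study's methods name CisGenome and both replicates, so it was treated as a joint call, which the list does not state. Submitters' processing notes name Bowtie2 2.2.5 and mm10. Depth is not given in the list, and the methods state only a lower bound per sample. The deposited FDR is a q-value computed by the authors. The authors' log2 value is the largest fold enrichment over input in a peak. The deposited T statistic is a score, by which the authors ranked peaks. The authors also gave a −log10 Poisson p-value, the strongest in each peak. Lengths were multiples of 50 bp.

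Peaks were placed on GENCODE M21 basic genes with Python 3.11.15 and pandas 2.3.3, and no peak end lay beyond its chromosome. Sequence comparisons omitted 5 listed peaks lying on unplaced scaffolds. The word search was tested on simulated sequence. Wilson intervals (95%, scipy 1.17.1) cover counting error over peaks only. No test was run, as the list has no replicates.

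Genes named were the 10 HoxA genes, Evx1, noncoding genes overlapping a peak and the gene holding or nearest each described peak. Peaks described singly came from the 15 highest-ranked called peaks inside, some not reported here, the 8 highest-ranked outside and those at the limits of distance and FDR. The other 2 called peaks inside, ranked 5989 and 7171, were named after their values were seen. Members and lists were chosen with earlier results of these data known. Alternatives changed the FDR, distances, cluster limits, promoter window, gene set and motif window.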

Additional observations from a re-analysis of the deposited data

How the results depend on the processing

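Of 34 alternatives over 6 results, 24 left the value within 1.5 times a count, within the Wilson interval of a share or within 0.1 of a log2 value. Around the HoxA genes the 22 called peaks became 14 at an FDR under 0.01 and 67 with every listed peak. Inside the cluster the 17 became 52 with every listed peak, and genes with a promoter peak went from 5 to 9. The share with a GLI match was 0% for the exact consensus and 9.09% within 100 bp of the summit. The median log2 fold enrichment was 2.78 at an FDR under 0.01 and 2.17 over every listed peak. The difference in medians inside minus outside reversed, to -0.109 and -0.0281, in these settings. These changes follow from which peaks or letters each setting counts. The 3 alternatives chosen after seeing the data gave 22 peaks inside at a −log10 Poisson p of 10 or more and 5 genes with a promoter peak in the comprehensive set and in RefSeq.

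No paired analysis was possible because a joint call holds no value per library. Leaving out each replicate was not run for the same reason. Only a minimum depth per sample is stated in the methods, and the list holds no read counts, so the precision of each enrichment could not be computed.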
